A study of Mus musculus with 3 samples.

Results

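The transcriptional regulators tied to the basal lineage of the mammary gland in earlier work, Trp63, Snai2, Mef2c, Egr2, Sox10, Id4, Runx1 and Tcf7l2, were followed across the epithelial cell classes of the mouse mammary gland. They were chosen by symbol and make up 8 of the 19050 genes in the tables. All 8 were found, and all 8 passed the filter on low counts. Per the labels, number 4 glands from 4 female mice of the FVB/NJ strain were pooled at an age of 10 weeks, and no treatment or transgene is named. Glands were digested with collagenase and trypsin, and live epithelial cells were sorted by CD49f and EpCAM staining, alongside the lineage antigens CD31, CD45 and Ter119. The 3 droplet libraries (10x Genomics 3' v2) form a single group and carry the same label text. Whether they came from separate pools of mice is not given, so the p-values rest on differences among 3 libraries that may be technical repeats.

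A cell was placed in a class by its counts of unique molecular identifiers (UMIs, 1 per captured transcript). The basal sum was Krt5, Krt14 and Acta2. The luminal progenitor sum was Csn3, Elf5, Kit and Aldh1a3, and the hormone-responsive sum was Prlr, Areg, Pgr and Esr1. The largest sum had to reach 5 UMIs and 3 times each of the others. Of 26845 barcodes, 24352 were kept, and these gave 9758 basal, 7962 luminal progenitor and 2527 hormone-responsive cells, with 4105 in no class. No factor studied here took part in this rule, so each can be compared between the classes. Median depth was 1968.5 UMIs in basal, 3213 in luminal progenitor and 3527 in hormone-responsive cells. Libraries 1, 2 and 3 held 18584156, 27220670 and 30984706 UMIs. Basal cells were 24.9%, 52.4% and 39.0% of the kept cells of the 3 libraries, which the sort can set. Between 77 and 146 barcodes were shared by any pair of libraries, at most 1.93% of a library.

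The mammary epithelium is a bilayer: an inner luminal layer, with luminal progenitors and hormone-sensing cells, and an outer basal layer of contractile myoepithelial cells. The p63 protein, encoded by Trp63, maintains the basal layer of stratified and glandular epithelia, and Snai2 (Slug) is a zinc-finger repressor known for holding mammary cells in a basal state. Mef2c is a MADS-box activator of muscle genes. Id4 is a helix-loop-helix protein without a DNA-binding region that titrates other factors and restrains luminal differentiation in the mammary gland. Egr2 (Krox20) is a zinc-finger factor of myelinating Schwann cells that also belongs to a family of rapidly induced genes. Sox10 is an HMG-box factor of neural crest and Schwann cells that is also found in mammary progenitors. Runx1 is a Runt-domain factor known from blood and from luminal breast cells, and Tcf7l2 (TCF4) is the DNA-binding partner of beta-catenin in Wnt signalling.

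The 8 factors fell into 3 patterns. Trp63, Snai2, Mef2c and Id4 were high in basal cells and at 1.05 to 3.62% of the basal level in luminal progenitors, and Egr2 was high in basal cells with a smaller luminal progenitor level. Sox10 and Tcf7l2 were present in basal cells but stood at higher levels in luminal progenitors and low in hormone-responsive cells. Runx1 was present in all 3 classes and highest in basal cells. Sox10, Tcf7l2 and Runx1 were thus not restricted to basal cells here, and of these only Runx1 was highest in basal cells.

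Promoters are shown for 3 basal-high factors and for Tcf7l2, so that the start regions of genes with different class patterns can be read side by side. RefSeq (GRCm38.p6, the same assembly as mm10) gave windows for 5 of the 8 factors, 13 in all, and the 250 bases before a start site are used. Capitals mark matches, on either strand, to a CArG box (the serum response factor site, CC and GG around A or T bases) or to the short motifs CATTCC (TEAD), CAGGTG (E-box), TGTGGT (RUNX), ACAAAG (SOX) and TTCAAAG (TCF). The CArG box is its own mirror image, so a match counts on both strands.
Egr2, chr10:67537619-67537868, plus strand: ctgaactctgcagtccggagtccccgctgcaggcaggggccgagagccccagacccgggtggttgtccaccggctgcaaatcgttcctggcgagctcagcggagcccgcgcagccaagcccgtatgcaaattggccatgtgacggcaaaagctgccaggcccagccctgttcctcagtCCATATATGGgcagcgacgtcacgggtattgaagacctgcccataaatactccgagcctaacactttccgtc
Id4, chr13:48260866-48261115, plus strand: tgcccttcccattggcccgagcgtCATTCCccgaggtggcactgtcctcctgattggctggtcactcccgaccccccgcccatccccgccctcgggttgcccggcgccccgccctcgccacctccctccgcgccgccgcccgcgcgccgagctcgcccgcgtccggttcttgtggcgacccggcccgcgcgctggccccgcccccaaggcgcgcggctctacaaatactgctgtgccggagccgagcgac
Mef2c, chr13:83503784-83504033, plus strand: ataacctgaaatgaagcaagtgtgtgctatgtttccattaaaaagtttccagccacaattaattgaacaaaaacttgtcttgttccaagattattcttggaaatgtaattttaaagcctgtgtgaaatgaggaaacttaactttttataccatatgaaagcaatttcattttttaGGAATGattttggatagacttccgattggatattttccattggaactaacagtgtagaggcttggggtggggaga
Tcf7l2, chr19:55895071-55895320, plus strand: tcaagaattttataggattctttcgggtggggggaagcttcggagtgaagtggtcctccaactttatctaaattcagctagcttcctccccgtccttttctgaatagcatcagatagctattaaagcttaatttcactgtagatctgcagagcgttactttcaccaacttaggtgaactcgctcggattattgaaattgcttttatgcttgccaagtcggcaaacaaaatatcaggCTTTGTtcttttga
A CArG box lay 72 to 63 bases before the Egr2 start shown, and 1.47% of 32851 promoter windows of this length held one. Of the 13 windows, 4 held a CArG box, all of Egr2, and 3 of these overlap. The TEAD motif stood in 4 of the 13 windows, 1 each of Egr2, Id4, Mef2c and Runx1, and in 12.6% of all windows. The SOX motif stood in 2 of the 13, 1 each of Mef2c and Tcf7l2, and in 16.5% of all windows. The E-box stood in 1 Runx1 window, against 17.2%, while the RUNX and TCF motifs, in 14.05% and 4.46% of all windows, were in no window of the 5 factors. These are matches of letters and do not show binding. The Egr2 and Tcf7l2 windows shown lie inside the gene but in no exon annotated by GENCODE M21, that is, in introns of its models. The Id4 and Mef2c windows end before the annotated start of the gene, and the Id4 window also lies within genes annotated on the minus strand. The processing notes name Cell Ranger 2.1.0 and do not state how counting treated the strand. The overlap given is that of the window, and whether it reaches the counted 3' end of Id4 was not examined. Counts at the 3' end of transcripts do not tell which start was used, nor the TA from the ΔN form of p63.

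Trp63 lies on chromosome 16 (25683763 to 25892102, plus strand; GENCODE M21 on mm10, as for all positions here). Levels are given in CPM, the UMIs of a gene relative to all UMIs in the sum over the cells of a class in a library, with TMM scaling. In basal cells, Trp63 stood at 182, 202 and 191 CPM in libraries 1, 2 and 3. The luminal progenitor sums were at 1.92, 7.31 and 4.18 CPM and the hormone-responsive sums at 2.81, 9.12 and 2.88 CPM. All 3 basal sums lay far above all 6 luminal sums, and the basal level varied little between libraries. The log2 difference between basal and luminal progenitor cells was 5.56 ± 0.82 (SD of the 3 within-library ratios, as throughout; adjusted p = 1.92e-06). Against hormone-responsive cells it was 5.33 ± 0.85 (adjusted p = 3.95e-06). Between the luminal classes Trp63 was not called (-0.22 ± 0.52, adjusted p = 0.707), and 2 of 3 libraries had the fitted sign.

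Snai2 (chromosome 16, 14705852 to 14709385, plus strand) was at 114, 80.2 and 69.8 CPM in basal cells. In luminal progenitors it was at 1.41, 1.59 and 1.75 CPM, and in hormone-responsive cells at 0.703, 1.56 and 0 CPM. The single library without a Snai2 UMI, library 3, held 1207 hormone-responsive cells, and 3 counts there would be 0.720 CPM. Basal sums did not overlap luminal ones. Snai2 was higher in basal cells by 5.75 ± 0.49 against luminal progenitors (adjusted p = 1.39e-06) and by 6.76 ± 1.19 against hormone-responsive cells (adjusted p = 2.67e-06), the latter resting on 7 hormone-responsive UMIs in all. Without library 2 that value was 8.69, and those of Trp63 and Id4 against hormone-responsive cells were 6.11 and 6.53, each still called.

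Mef2c (chromosome 13, 83504034 to 83667080, plus strand) rested on 1297 basal UMIs and 8 hormone-responsive ones. It stood at 49.1, 65.7 and 62.4 CPM in basal, 0.605, 1.91 and 1.26 CPM in luminal progenitor and 0, 1.04 and 0.961 CPM in hormone-responsive cells. Basal and luminal sums were again fully apart. The difference was 5.61 ± 0.43 against luminal progenitors (adjusted p = 4.52e-07) and 6.20 ± 0.97 against hormone-responsive cells (adjusted p = 9.81e-07). In library 1, 343 hormone-responsive cells held no Mef2c UMI, which allows a level of up to 2.11 CPM.

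Id4 (chromosome 13, 48261228 to 48266026, plus strand) stood at 131, 191 and 128 CPM in basal cells. The luminal progenitor values were 2.02, 5.40 and 1.55 CPM and the hormone-responsive values 0, 4.69 and 1.92 CPM. Library 2 was highest in every class, and the classes did not overlap between basal and luminal. Basal cells were higher by 5.78 ± 0.54 than luminal progenitors (adjusted p = 1.06e-06) and by 5.93 ± 1.84 than hormone-responsive cells (adjusted p = 2.02e-06). For Snai2, Mef2c and Id4, as for Trp63, the 2 luminal classes were not told apart (log2 differences 1.02 ± 1.39, 0.59 ± 0.63 and 0.14 ± 1.70; adjusted p = 0.266, 0.418 and 0.83). Without library 2 the Snai2 difference was 2.90, still not called (adjusted p = 0.0798).

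**Figure D1:**
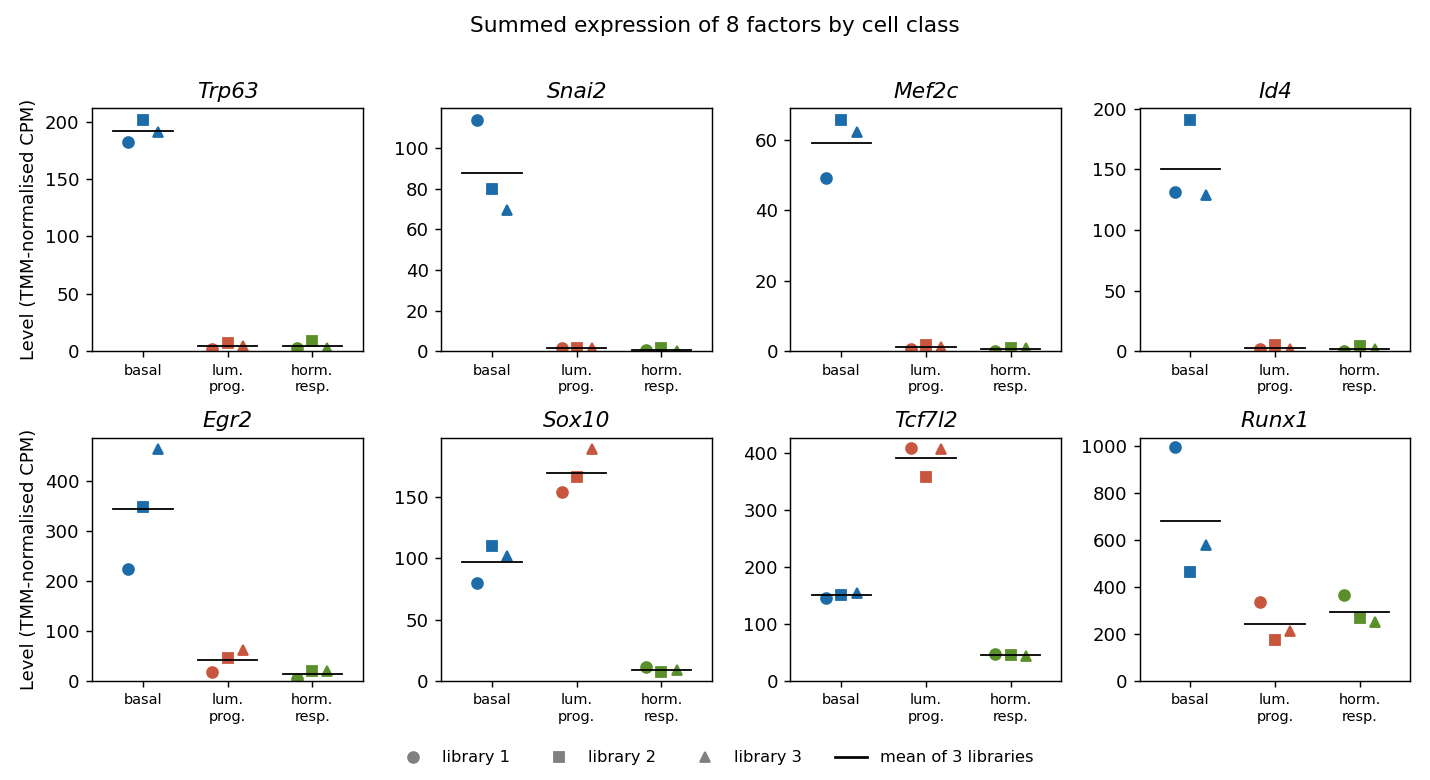
Level of each factor (TMM-normalised CPM, linear axis from 0, own scale per panel) in the summed counts of 3 classes; points are the 3 libraries and bars the mean. Trp63, Snai2, Mef2c and Id4 stand above 49 CPM in basal cells and below 10 CPM in luminal cells, whereas Sox10 and Tcf7l2 are highest in luminal progenitors.

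These low luminal values were set beside those of contractile genes, which mark myoepithelium and were not themselves in the class sums. Acta2, the smooth-muscle actin, was in the basal sum, so the classes were not chosen independently of contractile genes. Over 14 such genes (Tagln, Myh11, Mylk and others), the median luminal progenitor level was 1.43%, 3.89% and 2.43% of the basal level in libraries 1, 2 and 3. Trp63 stood at 1.05%, 3.62% and 2.18%, in the same order of libraries. Mef2c was at 1.23%, 2.90% and 2.02%, Id4 at 1.54%, 2.83% and 1.21%, and Snai2 at 1.24%, 1.98% and 2.51%. The luminal traces of these 4 factors were thus of the size seen for contractile genes, and whether they came from luminal cells or from free RNA was not tested. The range over single contractile genes was wide, from 0 to 17.5% in library 1.

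Egr2 (chromosome 10, 67535475 to 67542188, plus strand) stood at 223, 347 and 463 CPM in basal cells. Luminal progenitors had 17.2, 45.8 and 62.2 CPM and hormone-responsive cells 4.22, 19.0 and 19.7 CPM. Library 1 was lowest in all 3 classes, and the spread between libraries was the widest of the 8 factors in hormone-responsive cells among those detected in every library, at 4.67 times. Basal cells were higher than luminal progenitors by 3.17 ± 0.44 (adjusted p = 3.35e-06) and higher than hormone-responsive cells by 4.63 ± 0.76 (adjusted p = 1.02e-06). Luminal progenitors were also higher than hormone-responsive cells, by 1.47 ± 0.35 (adjusted p = 0.00108). Without the library as a block this last call was lost (1.43, adjusted p = 0.0602). Egr2 was at 7.74%, 13.2% and 13.4% of its basal level in luminal progenitors, above the contractile median of each library but within the range of single contractile genes.

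A factor was sorted as basal-only when it was called higher in basal than in both luminal classes with a log2 difference of at least 3 (8-fold) in both. A call required a Benjamini-Hochberg adjusted p below 0.05 over all genes tested and a log2 difference of at least 1. Trp63, Snai2, Mef2c, Id4 and Egr2 met this bound. Egr2 lay just inside it at 3.17, with 2 of its 3 within-library ratios, 2.91 and 2.89, below 3, and it was the only one of the 5 called between the luminal classes. Of the values of the other 3 factors, Sox10 was above the bound against hormone-responsive cells, at 3.55, and below 0 against luminal progenitors, while Tcf7l2 was at 1.73 and -1.38 and Runx1 at 1.15 and 1.48 in these comparisons. A factor was sorted as shared with luminal progenitors when its level there was at least 1/8 of basal and was called higher than in hormone-responsive cells, which Sox10 and Tcf7l2 met. Runx1 met neither rule, and the sorting was the same under all 14 alternative settings.

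**Figure D2:**
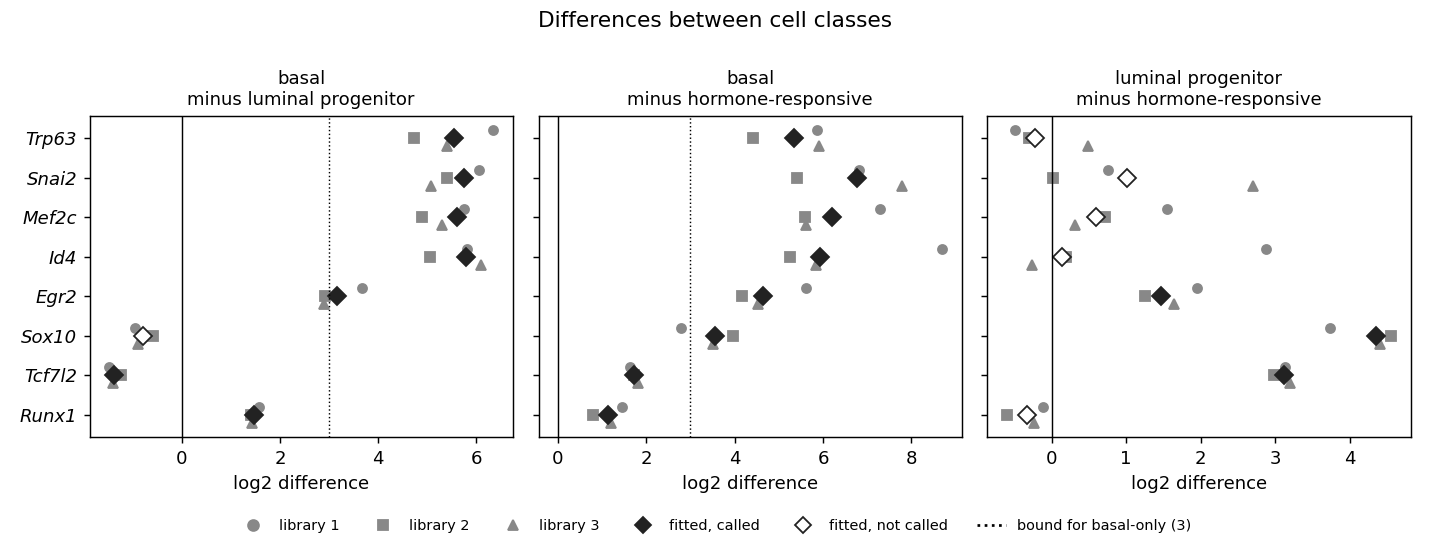
Log2 differences between classes for each factor; grey points are within-library ratios, diamonds are fitted values (filled where called), and the dotted line is the bound of 3. Basal minus luminal progenitor values lie above 4.7 in every library for Trp63, Snai2, Mef2c and Id4, and below 0 for Sox10 and Tcf7l2.

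Sox10 (chromosome 15, 79154908 to 79165240, minus strand) stood at 79.9, 110 and 102 CPM in basal cells. In luminal progenitors it reached 154, 167 and 189 CPM, and in hormone-responsive cells 11.3, 6.78 and 8.65 CPM. Every luminal progenitor sum lay above every basal sum, and the hormone-responsive sums were lowest. The basal level was lower than that of luminal progenitors by a log2 difference of -0.80 ± 0.19 (adjusted p = 0.00209), which is under the 1 required for a call. Against hormone-responsive cells, Sox10 was higher in basal cells by 3.55 ± 0.59 (adjusted p = 1.47e-06) and in luminal progenitors by 4.35 ± 0.43 (adjusted p = 7.57e-07).

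Tcf7l2 (chromosome 19, 55741820 to 55933654, plus strand) was at 145, 151 and 155 CPM in basal cells. Luminal progenitors had 409, 359 and 408 CPM and hormone-responsive cells 46.4, 45.3 and 44.0 CPM. The 3 classes were fully separated, and libraries differed by at most 1.14 times within a class. Tcf7l2 was lower in basal cells than in luminal progenitors, by -1.38 ± 0.12 (adjusted p = 9.93e-06), and higher than in hormone-responsive cells, by 1.73 ± 0.08 (adjusted p = 3.65e-06). Luminal progenitors exceeded hormone-responsive cells by 3.11 ± 0.12 (adjusted p = 3.22e-07). The order was thus luminal progenitor, basal, hormone-responsive, and each neighbouring pair differed beyond its spread.

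Runx1 (chromosome 16, 92601466 to 92826149, minus strand) stood at 995, 464 and 581 CPM in basal cells. It was at 335, 175 and 214 CPM in luminal progenitors and at 364, 266 and 253 CPM in hormone-responsive cells. Library 1 was highest in each class, by up to 2.14 times over the lowest library, and all 3 basal sums lay above all luminal sums. Runx1 was higher in basal cells by 1.48 ± 0.09 against luminal progenitors (adjusted p = 3.21e-05) and by 1.15 ± 0.33 against hormone-responsive cells (adjusted p = 0.00014). The luminal classes were not told apart (-0.33 ± 0.25, adjusted p = 0.0882).

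In counts, 6 of the 8 factors were called higher in basal than in luminal progenitor cells, 1 was called lower and 1 was not called. Among all 12583 genes tested, 16.6% were called higher and 14.9% lower in basal cells (31.5% in either direction). Against hormone-responsive cells all 8 were called higher in basal cells, where the background was 21.1% (35.8% in either direction). Luminal progenitors were higher than hormone-responsive cells in 3 factors (Egr2, Sox10 and Tcf7l2) and lower in 0, beside 15.3% and 9.5% of all genes (24.8% in either direction). The median log2 difference of the 8 was 4.36, 4.98 and 0.80 in these comparisons, and that of all genes -0.13, 0.02 and 0.13. The factors were chosen with earlier results of these data known, so their counts are a description. In sums of cells, fewer cells of a type and less RNA per cell cannot be told apart.

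**Figure D3:**
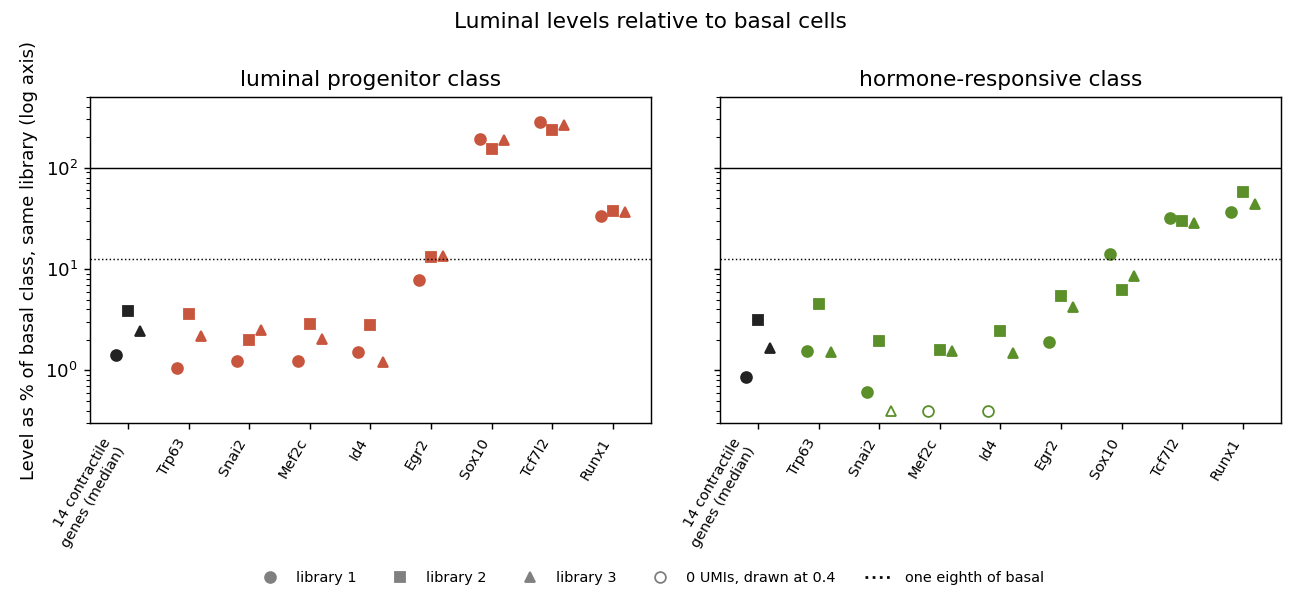
Luminal level as a percentage of the basal level in the same library (log axis), for the median of 14 contractile genes and each factor; open symbols are 0 UMIs. In luminal progenitors, Trp63, Snai2, Mef2c and Id4 lie near the contractile median, Egr2 at 7.74 to 13.4%, Runx1 at 33.7 to 37.6%, and Sox10 and Tcf7l2 above 150%.

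At the level of single cells, shares of cells with a UMI were taken after thinning each cell to 1500 UMIs, since the classes differ in depth. This kept 7593 basal, 7305 luminal progenitor and 2339 hormone-responsive cells. Trp63 was detected in 23.3% ± 3.20 of basal cells (mean ± SD, n = 3 libraries), 0.701% ± 0.475 of luminal progenitors and 0.770% ± 0.503 of hormone-responsive cells. Without thinning the shares were 30.6% ± 4.29, 1.49% ± 1.04 and 1.85% ± 1.33. Detection of a factor in a minority of basal cells at this depth does not show that the other cells lack it.

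For Snai2 the thinned shares were 11.2% ± 3.03, 0.228% ± 0.151 and 0.103% ± 0.179, and for Mef2c 8.02% ± 1.43, 0.219% ± 0.230 and 0.0669% ± 0.0589, in the same order of classes. Id4 was found in 17.3% ± 4.50 of basal, 0.357% ± 0.258 of luminal progenitor and 0.630% ± 0.738 of hormone-responsive cells. For Snai2, Mef2c and Id4, the highest luminal share in any library was 1.44%, that of Id4 in 902 hormone-responsive cells of library 2. Egr2 was found in 33.8% ± 9.86, 5.17% ± 2.68 and 2.39% ± 1.34 of cells. Sox10 reached 12.8% ± 2.91 of basal and 21.4% ± 0.626 of luminal progenitor cells, against 1.53% ± 0.319 of hormone-responsive cells. Tcf7l2 was found in 19.6% ± 1.99 of basal and 41.4% ± 0.674 of luminal progenitor cells, against 5.66 to 8.36% of hormone-responsive cells. Runx1 was found in 57.8% ± 10.3, 27.8% ± 8.75 and 35.5% ± 7.03. The unthinned shares gave each factor's highest class as before: 15.9%, 11.05%, 23.8%, 41.6% and 67.1% of basal cells for Snai2, Mef2c, Id4, Egr2 and Runx1, and 40.9% and 66.7% of luminal progenitors for Sox10 and Tcf7l2.

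**Figure D4:**
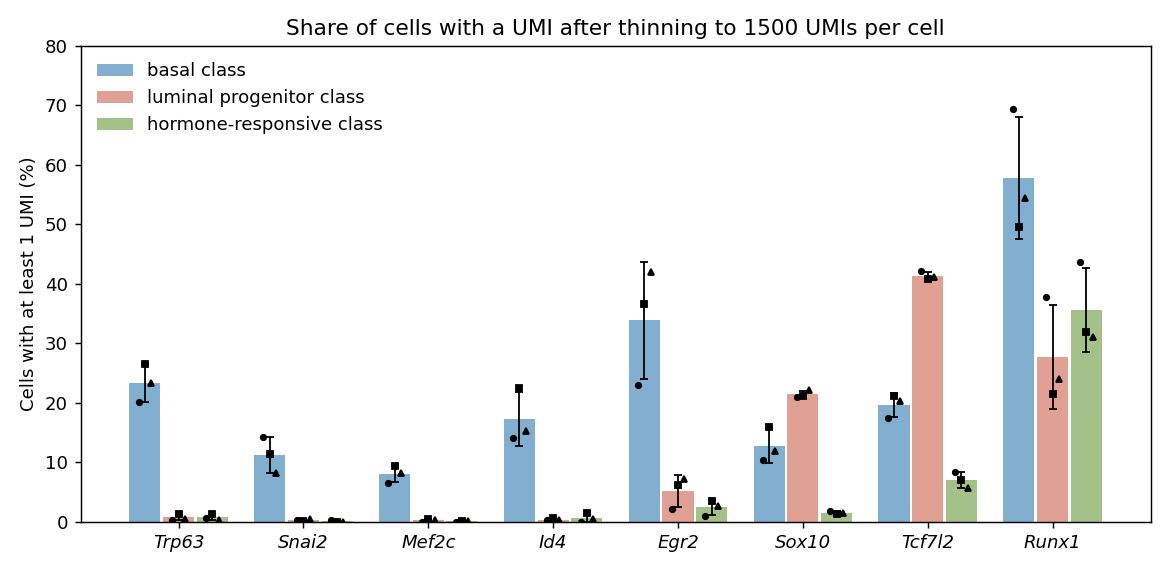
Share of cells (%) with at least 1 UMI of each factor after thinning to 1500 UMIs per cell; bars are the mean of 3 libraries, error bars the SD, and points the libraries. Trp63, Snai2, Mef2c and Id4 have almost no luminal share, and the Tcf7l2 share is 41.4% in luminal progenitors and 19.6% in basal cells.

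Of the 5 basal-only factors, thinned basal cells had 0 detected in 35.7% ± 7.71, 1 in 40.7% ± 3.22, 2 in 18.6% ± 3.33 and 3 in 4.39% ± 1.496. None of the 5 was detected in 93.5% ± 3.10 of luminal progenitors and 96.1% ± 2.25 of hormone-responsive cells. The number of basal cells with both factors of a pair was compared with the number their separate shares would give. In basal cells, 16 of 28 pairs had at least 30 cells expected with both in every library, and the ratio of observed to expected ran from 0.866 to 1.23. The highest ratio was that of Trp63 and Id4, at 1.41, 1.14 and 1.15 in the 3 libraries, and the lowest that of Id4 and Runx1, at 0.725, 0.966 and 0.908. The ratio was above 1 in all 3 libraries for 5 pairs and below 1 in all 3 for 2 pairs. For Trp63 and Id4, 49, 252 and 108 cells had both, where 34.7, 221 and 93.8 were expected. These ratios were not tested and are given as a description.

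Egr2 was then set beside 14 immediate-early genes (Fos, Jun, Egr1, Nr4a1 and others), which are induced within minutes of a stimulus and can be raised by tissue digestion. In luminal progenitors of library 1 these genes stood at a median log2 of -1.87 against the mean of the other libraries, with 12 of 14 over 2-fold lower, and Egr2 at -1.61. In library 3 they stood at 1.49 with 10 of 14 over 2-fold higher, and Egr2 at 1.14. In hormone-responsive cells of library 1 the list was at -2.44 and Egr2 at -2.12. Basal cells showed smaller differences for the list, -0.31, -0.11 and 0.32 in libraries 1, 2 and 3, with Egr2 at -0.85, 0.11 and 0.73. Egr2 and the list moved in the same direction between libraries in both luminal classes, and the part of this in the class differences was not tested. Egr2 was above 2.8 (log2) between basal and luminal progenitor cells in each of the 3 libraries.

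**Figure D5:**
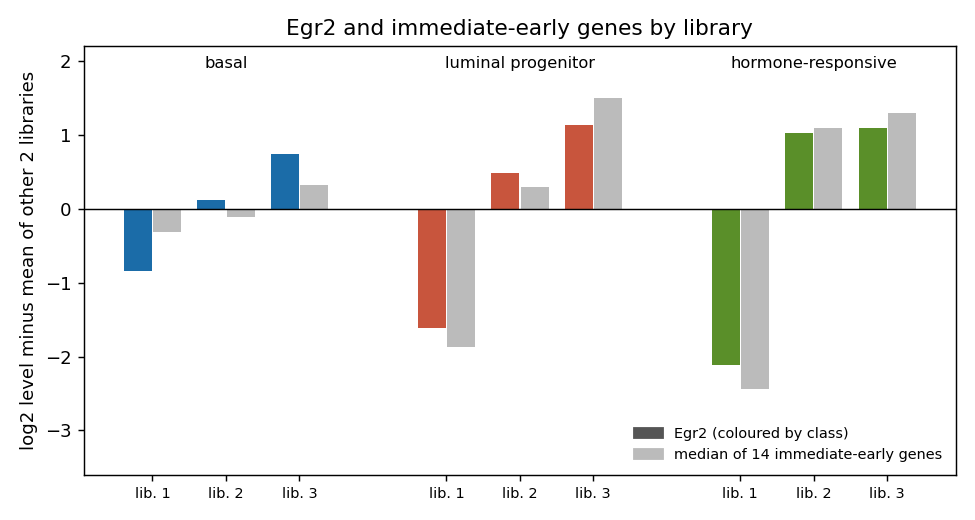
Log2 level of Egr2 (coloured) and the median of 14 immediate-early genes (grey) in each library minus the mean of the other libraries, by class. Library 1 is lowest for both in all 3 classes, most so in hormone-responsive cells, at -2.12 and -2.44.

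Of these 14 immediate-early genes, 3 were called higher in basal cells than in luminal progenitors and 0 lower (median 0.70), with 1 higher in a fit without the library block. Among all genes 16.6% were called higher and 14.9% lower. Against hormone-responsive cells, 8 of the 14 were higher in basal cells and 0 lower (median 1.31), beside 21.1% and 14.7% of all genes. The same shares of all genes apply to the list counts that follow. Between basal cells and luminal progenitors, Fosl1, an AP-1 subunit, differed by 2.27 ± 1.98 (adjusted p = 0.00997). Nr4a1, an orphan nuclear receptor, differed by 1.76 ± 1.59 (adjusted p = 0.0172), and its difference was 0.90 without library 1 and thus no longer called. Egr2 differed by 3.17 ± 0.44, and the spread of the 14 listed genes ran from 0.34 (Jund) to 2.41 (Atf3), both named after their values were seen.

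Relatives of the 8 factors did not follow them uniformly. Of 25 relatives listed, 23 were in the tables and 19 were tested; 8 were called higher in basal cells than in luminal progenitors, 1 lower and 10 were not called (median 0.86). Trp73, the p63 relative, stood at 9.40 ± 2.91 CPM in basal and 0.219 ± 0.0748 CPM in luminal progenitor cells (log2 difference 5.20 ± 0.57, adjusted p = 6.71e-06), whereas Trp53 was not called (-0.04 ± 0.20). Id3, a BMP-responsive relative of Id4, differed by 3.50 ± 0.35 (adjusted p = 1.56e-06) but was higher in hormone-responsive cells, at 300 ± 50.5 CPM, than in basal cells, at 115 ± 47.6 CPM (-1.45 ± 0.37, adjusted p = 0.000142). The Id4 pattern was thus not that of Id3. Sox6 was lower in basal cells (-2.93 ± 0.49, adjusted p = 0.000357).

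Some further relatives are named after their values were seen. Sox8, of the same SOX group as Sox10, was higher in basal cells than in luminal progenitors (2.45 ± 0.28, adjusted p = 5.41e-05), unlike Sox10. Sox9 was not called in this comparison (-0.93 ± 0.12). Tcf7 and Tcf7l1, the other measured TCF factors, were higher in basal cells by 3.14 ± 0.14 (adjusted p = 2.25e-06) and 1.25 ± 0.73 (adjusted p = 0.00199), where Tcf7l2 was lower. Like Sox10 and Tcf7l2, Sox8 and Tcf7l1 were higher in luminal progenitors than in hormone-responsive cells. The differences were 2.53 ± 1.17 (adjusted p = 0.00434) and 2.68 ± 0.62 (adjusted p = 0.000235), with Sox8 at only 2.66 and 0.334 CPM. Tcf7 was not called between the luminal classes (-0.50 ± 0.50). Runx2 stood at 33.5 ± 3.69, 19.3 ± 7.36 and 0.902 ± 0.177 CPM in basal, luminal progenitor and hormone-responsive cells, a basal to hormone-responsive difference of 5.10 ± 0.08 (adjusted p = 8.56e-06). Runx1, by contrast, kept 294 ± 61.0 CPM in hormone-responsive cells. Against hormone-responsive cells, 12 of the 19 tested relatives were higher in basal cells and 1 lower (median 2.102).

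Among 30 other regulators linked to the basal lineage, 22 were tested, with 9 higher in basal cells than in luminal progenitors, 6 lower and 7 not called (median 0.86). Irx4, a homeobox factor, was higher by 5.51 ± 0.92 (adjusted p = 2.77e-06) and Bcl11b, a zinc-finger factor, by 4.58 ± 0.28 (adjusted p = 7.89e-07). The Notch target Hey2 (-3.41 ± 1.80, adjusted p = 0.000607) and the Hippo effector Tead4 (-3.28 ± 0.70, adjusted p = 0.000127) were lower, so that this list too held members of both directions. The mesenchymal factors Zeb1, Zeb2, Twist1 and Twist2 had too few counts to be tested. Of 20 luminal regulators, 19 were tested, with 10 lower in basal cells, 2 higher and 7 not called (median -1.02). The ETS factor Ehf (-4.96 ± 0.30, adjusted p = 1.98e-07) and Hey1 (-4.03 ± 0.79, adjusted p = 4.68e-06) were lower, and Tbx3 (2.38 ± 0.70, adjusted p = 0.000634) and Ovol1 (1.86 ± 1.02, adjusted p = 0.00104) higher in basal cells.

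Epithelial genes known from p63 biology were mostly basal. Of 21, 17 were higher in basal cells than in luminal progenitors, 0 lower and 4 not called (median 2.89). P-cadherin, Cdh3, differed by 5.90 ± 0.66 (adjusted p = 5.04e-07) and the hemidesmosome collagen Col17a1 by 5.76 ± 0.93 (adjusted p = 1.33e-06). Against hormone-responsive cells 17 were higher and 1 lower (median 2.64). The lower gene was the FGF receptor Fgfr2 (-2.18 ± 0.23, adjusted p = 1.27e-05), named after its value was seen. All 14 contractile genes, a set that includes targets of serum response factor and Mef2 proteins in muscle, were higher in basal than in luminal progenitor cells (median 5.47), among them Tagln (6.41 ± 0.45, adjusted p = 2.29e-07) and the myosin kinase Mylk (6.09 ± 0.59, adjusted p = 5.04e-07). All 14 were also higher against hormone-responsive cells (median 5.73). As the contractile gene Acta2 was part of the basal sum, these counts are not independent of the class rule. The keratins Krt5 and Krt14 of the basal layer were in that sum too. The counts of the p63 list are therefore not independent of the class rule either.

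Feedback targets of Wnt signalling, the pathway in which Tcf7l2 acts, were set beside it. Of 10, 7 were tested, and 5 were higher in basal cells than in luminal progenitors, 1 lower and 1 not called (median 1.38). Nkd1 differed by 5.11 ± 0.92 (adjusted p = 2.56e-06) and Lgr5 by 4.64 ± 0.42 (adjusted p = 6.14e-06), while cyclin D1, Ccnd1, was lower (-3.04 ± 0.43, adjusted p = 1.36e-05). In this comparison most tested Wnt targets were therefore higher in basal cells, where Tcf7l2 was lower. Against hormone-responsive cells, 6 of the 7 were higher in basal cells and 1 lower (median 3.98), and Tcf7l2 was higher in basal cells too. In luminal progenitors 2 targets were higher than in hormone-responsive cells, 0 lower and 5 not called, and Tcf7l2 was again higher. Lgr5 differed between libraries in basal cells, at 151, 42.8 and 48.3 CPM.

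For each factor the 3 genes whose log2 CPM rose and fell most alike over the 9 class sums were found by Pearson's r, which does not compare the size of levels or differences. These sums share libraries and the same 3 classes, so r is high for many genes and is given as a description. Nearest to Trp63 were the Wnt inhibitor Wif1 (r = 0.997), the calcium channel Cacna1g and the protease Adamts18 (both 0.997). Snai2 was most like the gap junction gene Gja1 (0.997), Trpv6 (0.989) and Paf1 (0.989), although Paf1 differed far less between classes, at 83.7 ± 3.91, 49.7 ± 1.22 and 42.7 ± 2.42 CPM. For Mef2c they were Fstl1 (0.998), Elovl4 (0.997) and Plcxd1 (0.997), and for Id4 Chsy1 (0.996), Rasa3 (0.995) and Chst11 (0.994), 2 of which, Chsy1 and Chst11, encode enzymes of chondroitin sulfate synthesis. Egr2 was nearest to Phf13 (0.995), Iffo2 (0.995) and Rbm38 (0.994). The shared pattern of Sox10 was found in Mob3b (0.995), Grsf1 (0.994) and Impa2 (0.994), and that of Tcf7l2 in complement C3 (0.996), Pag1 (0.993) and Fam84b (0.993). C3 stood at 112 ± 13.3, 489 ± 124 and 19.3 ± 0.948 CPM in basal, luminal progenitor and hormone-responsive cells. Runx1 was closest to Sntb2 (0.992), Spats2l (0.980) and A330102I10Rik (0.970).

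Markers of other cell types that use these factors were measured in the same sums. Sox10 and Egr2 are Schwann cell factors. The 8 measured Schwann and melanocyte markers summed to 15.5 to 17.0 CPM in basal, 37.7 to 48.9 in luminal progenitor and 21.4 to 33.1 in hormone-responsive cells. Mbp made up most of this, at 35.9 ± 2.70 CPM in luminal progenitors, while Fabp7 was at 0 there. Among barcodes outside the classes, 2 carried 3 or more of these markers, with 5 UMIs of Egr2 and 0 of Sox10. Endothelial markers summed to 6.95 to 18.6 CPM in basal cells, 7.47 to 10.4 in luminal progenitors and 9.12 to 15.4 in hormone-responsive cells. Fibroblast markers summed to 101 to 338, 17.95 to 47.2 and 147 to 176 CPM, with Dcn at 182 ± 94.4 CPM in basal and 154 ± 17.1 CPM in hormone-responsive cells. The 6 pericyte markers summed to 29.5 to 34.8 CPM in basal, 82.3 to 104 in luminal progenitor and 63.3 to 101 in hormone-responsive cells, the luminal sums being mostly Notch3. Rgs5 and Pdgfrb were higher in mean level in basal cells, at 11.5 ± 6.61 and 10.3 ± 2.46 CPM, than in luminal progenitors, at 1.85 ± 1.72 and 0.663 ± 0.515 CPM, and Kcnj8 was at 0 in both luminal classes. Pericytes also express Acta2, which is part of the basal sum, and with Acta2 left out of that sum Snai2 and Mef2c kept their calls against both luminal classes. A kept call does not tell how much of the basal level came from other cell types. The part of fibroblasts, endothelial cells and pericytes in the basal levels of Snai2 and Mef2c was not tested.

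Barcodes outside the 3 classes that carried at least 3 markers of 1 other cell type gave a view of the factors beyond the epithelium. In 62 endothelial-like cells Mef2c reached 267 CPM (30 UMIs, exact Poisson 95% interval 180 to 382, for counting error only), with 1 UMI each of Trp63, Snai2, Sox10 and Id4. Mef2c was also found in 12 pericyte-like cells (11 UMIs) and 14 immune-like cells (13 UMIs), each group with 1 UMI of Trp63. In 136 fibroblast-like cells Egr2 stood at 174 CPM (129 to 231), Tcf7l2 at 90.8 (58.7 to 134), Mef2c at 43.6 (22.5 to 76.1) and Snai2 at 36.3 (17.4 to 66.8), against 2 UMIs of Trp63. Mef2c in the endothelial-like cells, and Mef2c, Egr2 and Snai2 in the fibroblast-like cells, were thus found with few UMIs of Trp63. The pericyte-like and immune-like cells were too few to tell, with Trp63 intervals of 1.35 to 298 and 0.730 to 161 CPM. No test was made between so few cells.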

How the data were processed

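The 3 10x Genomics 3' v2 libraries of sorted mammary epithelial cells were measured. The authors deposited raw UMI counts per gene and barcode, with no normalization; per the submitters' processing notes, Cell Ranger 2.1.0 and mm10 were used. Annotation and cell calling: not given in the sources used here. All values were whole numbers. Barcodes with at least 500 genes and under 10% mitochondrial UMIs were kept (26320), and the 1968 highest Scrublet scores (scanpy 1.11.5, 0.8% per 1000 barcodes) were removed as doublets. Counts were summed per library and class (9 sums) and tested with edgeR 4.0.16 in R 4.3.3: TMM, filterByExpr, library as a block, quasi-likelihood test, two-sided, Benjamini-Hochberg adjustment over 12583 genes. Adjusted p-values are from this fit unless another setting is named beside them. The 11 class-rule genes were not tested. Ratios within a library were taken on log2 CPM (prior count 2). On simulated sums for basal versus luminal progenitor cells (12377 genes in the fit), 90.0% of genes raised by 1.5 and 98.0% of those raised by 3 (log2) were called. Of genes lowered by 1.5 and by 3, 86% and 95.9% were called. The simulated sums held no library effect. Classes of a library come from the same suspension, which pairs them; deviations correlated at 0.191 to 0.411 within a library. Factors, lists and tests were chosen with earlier results of these data known. Genes were named by rule: the 8 factors, their 3 most similar genes, and the 2 largest called differences per list and direction. Alternatives covered scaling, tool, filters, block, libraries, doublets, class rule and depth.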

Additional observations from a re-analysis of the deposited data

Results flagged for a closer look

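Kept barcodes that belonged to none of the 3 classes and to no other cell type were left out of the comparisons, and all 8 factors had counts there above the 3 UMIs that serve as the detection limit (0.329 CPM). Of these barcodes, 3439 had under 5 UMIs of every class sum and 435 had sums within 3-fold of each other. Scaled by total counts, Tcf7l2 stood at 323.8 CPM, Runx1 at 283.5 CPM and Sox10 at 132.0 CPM. Egr2 stood at 64.4 CPM, Trp63 at 20.4 CPM, Id4 at 14.2 CPM, Snai2 at 11.2 CPM and Mef2c at 5.48 CPM. For all 8 factors this value lay between the mean levels of basal and luminal progenitor cells, which are TMM-scaled. No test was made on these barcodes.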

How the results depend on the processing

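Of 336 recomputed differences of the 8 factors, 331 kept their sign and their side of the threshold. Without the replicate block, the Egr2 difference between luminal progenitor and hormone-responsive cells was 1.43 (adjusted p = 0.0602; range over alternatives 6.81e-06 to 0.0602), and no other call on a factor was lost. Between the luminal classes, 4 values near 0 turned sign, and none of them was called. Id4 was at -0.20 with a class sum 10 times the others, and ran from -0.071 (without library 1) to 0.36 with a library left out. Trp63 was at 0.18 with sums thinned to equal totals, and ran from -0.56 to 0.14 (without library 2) with a library left out. With such thinning, 1206 genes were called higher in luminal progenitor than in hormone-responsive cells, against 1923. The cause of these changes was not tested. Scaling by RLE moved the median of all genes between basal and luminal progenitor cells by 0.15, and no factor changed direction in that comparison. Hormone-responsive cells of library 1 (343) set the limit for Mef2c and Id4, at 0 UMIs. List counts and named list genes were recomputed as alternatives chosen after seeing the data: 20 of 588 counts moved by over 1.5 times, and of the named genes only Nr4a1 lost its call, without the block (1.02) and without library 1 (0.90). Shares of cells differed with and without thinning, as given above. Among the recomputed shares, 31 were counted as moved and 113 as the same. Of the ratios of observed to expected cells with both factors, 3 were counted as moved and 16 as the same.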
